A study of Homo sapiens with 32 samples.

Results

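RRM2B, DDB2, XPC, POLH, FDXR, SESN1 and TIGAR, 7 of the 60107 genes in the count table, were followed across 32 RNAseq libraries of U2OS and HEK293T cells. They were chosen by symbol as p53 targets that act in DNA repair, in the supply of deoxynucleotides and in redox metabolism. Each matched a single Ensembl identifier, and each passed the filter on low counts in every comparison. The lowest count of any of them in any library was 10, for SESN1 in library 1.

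U2OS is an osteosarcoma line with wild-type p53. HEK293T is a line of human embryonic kidney origin that expresses the SV40 large T antigen, a viral protein that binds p53. CPT (camptothecin) traps topoisomerase I on DNA, and Ku-55933 inhibits ATM, the kinase that signals breaks in DNA. Libraries are named here by the number in their titles, with 4 in each set. Libraries 26 to 29 came from U2OS cells given CPT and libraries 30 to 33 from U2OS cells given DMSO. Libraries 22 to 25 came from HEK293T cells given DMSO, and libraries 18 to 21 carry the label of an HEK293T ATM knockout, whereas the study describes an ATM inhibitor in HEK293T for its RNAseq. By the study's methods CPT was used at 400 nM in U2OS and at 100 nM in HEK293T and Ku-55933 at 9 µM, and the medium was replaced after 24 h and cells were harvested 48 h later. Those doses are given for the proteomics samples, which were made in parallel with the RNA. The U2OS ATM knockout was grown for 72 h without treatment and derives from picked clones.

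For libraries 1 to 17, apart from 1 and 17, the deposited labels and the profiles disagree on the cell line. Libraries 10, 12, 14 and 16 are labelled U2OS ATM knockout and 11, 13 and 15 U2OS wild type. Yet markers of U2OS cells (CAV1, LGALS1, TGFBI, COL5A1 and CLU) summed to 77.1 to 249 CPM (counts on a gene for every 1e+06 counts on genes) in them, against 2174 to 4440 CPM in libraries 26 to 33. Library 17, labelled HEK293T DMSO, stood with them at 78.0 CPM, so that label and profile name the same line. Libraries 2, 4, 6 and 8 are labelled HEK293T CPT and 3, 5 and 7 HEK293T DMSO, yet the same markers summed to 3031 to 4835 CPM in them. Library 1, labelled U2OS wild type, stood with these at 3332 CPM, and its label also matches its profile. HEK293T markers (LIN28B, NEFM, INA, GATA3 and PAX2) gave the reverse, at 311 to 471 CPM in libraries 10 to 17 and 20.8 to 37.1 CPM in libraries 1 to 8. Read by number, the even-numbered libraries of 10 to 17 would be HEK293T CPT and those of 1 to 8 U2OS ATM knockout, a reading the labels do not give. Both sets are therefore described as even-numbered against odd-numbered libraries, and no effect of a condition is drawn from them. Between 1232674 and 6362433 counts fell on genes in a library. In bulk RNA, fewer cells of a type and less RNA per cell cannot be told apart.

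p53 is a transcription factor that DNA damage stabilizes, in part through ATM, and it binds a pair of decamers near its target genes. Its targets include not only arrest and death genes but also enzymes that mend DNA or temper oxidants. RRM2B is the p53-inducible small subunit of ribonucleotide reductase, which makes deoxynucleotides outside S phase. DDB2 and XPC recognize lesions in nucleotide excision repair, and POLH is the translesion polymerase that copies past ultraviolet lesions. FDXR passes electrons from NADPH to mitochondrial ferredoxins, SESN1 is a sestrin that restrains TORC1 and supports peroxiredoxins, and TIGAR is a phosphatase that lowers glycolytic flux and favours the pentose phosphate pathway.

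RefSeq promoter windows (250 bases before to 50 bases after a gene start, GRCh38.p14) were matched for 6 of the 7 genes, in 10 windows. The p53 decamer consensus, a motif of 10 letters that equals its own reverse complement so that a match lies on both strands, was found in 3 of the 10 windows, one each of DDB2, FDXR and SESN1. Among all 35116 windows 6.63% held it. The windows of XPC, POLH and TIGAR held no such letters. The 3 matched stretches are shown since they are the p53-like letters nearest to these genes' starts, with the matches in capitals and the strand of the gene.
DDB2, chr11:47214974-47215003, plus strand: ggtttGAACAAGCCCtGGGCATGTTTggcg
FDXR, chr17:74872995-74873244, minus strand: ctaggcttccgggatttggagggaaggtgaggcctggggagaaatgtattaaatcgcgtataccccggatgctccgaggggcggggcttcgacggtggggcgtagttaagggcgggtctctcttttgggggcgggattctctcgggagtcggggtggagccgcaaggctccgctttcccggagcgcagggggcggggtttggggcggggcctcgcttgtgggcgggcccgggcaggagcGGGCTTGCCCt
SESN1, chr6:109008989-109009238, minus strand: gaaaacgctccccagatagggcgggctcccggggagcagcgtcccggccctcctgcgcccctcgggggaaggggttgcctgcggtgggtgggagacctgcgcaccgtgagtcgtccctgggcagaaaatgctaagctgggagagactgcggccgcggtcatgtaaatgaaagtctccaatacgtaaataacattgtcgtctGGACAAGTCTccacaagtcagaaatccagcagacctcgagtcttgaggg
DDB2 held a pair of decamers 1 base apart, at bases 6 to 26 counted from the first base of the gene model. Pairs at most 13 bases apart occurred in 10 of the 35116 windows (0.0285%). The single match of FDXR lay at bases -11 to -2 before the start of the gene model, and that of SESN1 at bases -49 to -40 before the third of its 3 starts. A match describes letters in a window and not a bound site.

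In U2OS cells given CPT, transcripts of all 7 genes were more abundant than in DMSO, and the libraries of the 2 groups did not overlap for any of the 7. Of the 19080 genes tested, 11.2% were higher and 20.1% lower without overlap. RRM2B, DDB2, POLH, FDXR, SESN1 and TIGAR passed the threshold (absolute log2 fold change over 1 and Benjamini-Hochberg adjusted p under 0.05, from the quasi-likelihood test of edgeR), 6 of 7 where 7.97% of all genes tested did so in that direction and 5.5% in the other. XPC passed on adjusted p but not on fold change. Increases ran from 1.47-fold for XPC to 3.62-fold for RRM2B.

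**Figure D1:**
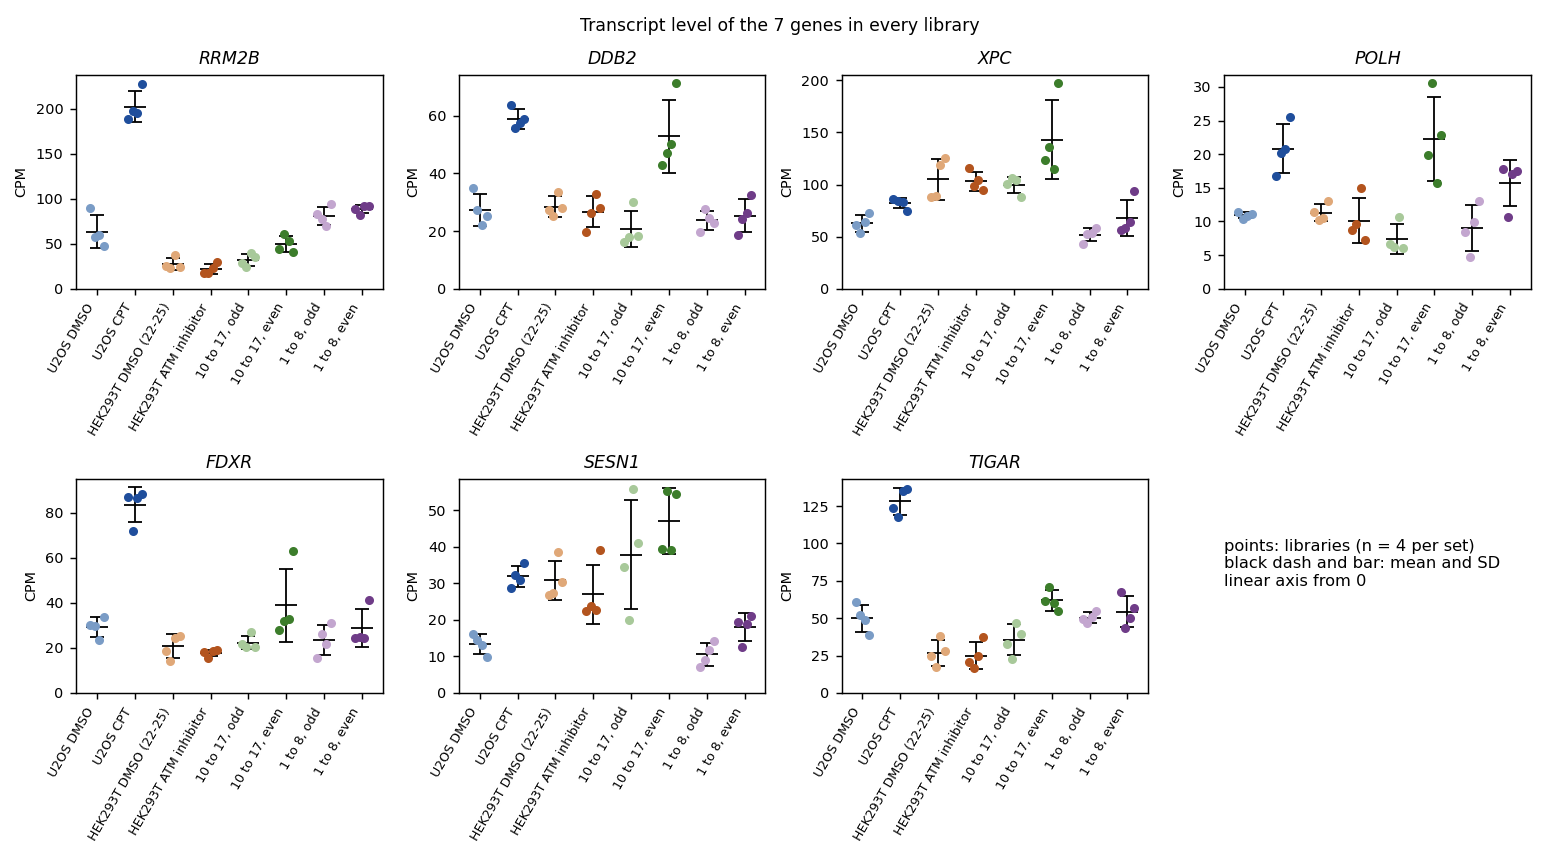
Transcript level in CPM (vertical axes, linear and from 0, scaled per gene) of the 7 genes in 8 sets of 4 libraries, with points for libraries and black dashes and bars for the mean and SD. In U2OS CPT every point of every gene lies above every U2OS DMSO point, while the HEK293T ATM inhibitor and HEK293T DMSO points overlap for all 7 genes.

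Among the repair genes, RRM2B stood at 89.2, 57.5, 59.8 and 47.8 CPM in DMSO libraries 30 to 33 and at 189, 197, 196 and 228 CPM in CPT libraries 26 to 29. The lowest CPT library was far above the highest DMSO library, and DMSO library 30 was the highest of its set. The log2 fold change was 1.86 (SE 0.13, edgeR adjusted p = 7.85e-13). DDB2 stood at 34.9, 27.2, 21.97 and 25.2 CPM in DMSO and at 63.8, 55.8, 57.5 and 59.0 CPM in CPT, with tightly grouped CPT libraries. Its log2 fold change was 1.29 (SE 0.13, edgeR adjusted p = 2.76e-09). ACP2, which lies on the opposite strand at or near the 3′ end of DDB2, went from a mean of 27.9 to 16.6 CPM. The strand setting of the counting is not given in the sources used here.

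XPC, the partner lesion sensor, showed the smallest difference. It stood at 61.1, 52.99, 63.6 and 72.8 CPM in DMSO and at 86.5, 83.7, 83.4 and 74.9 CPM in CPT. The highest DMSO library came close to the lowest CPT library. The log2 fold change of 0.55 (SE 0.13, edgeR adjusted p = 0.000976) had a 95% interval of 0.29 to 0.81, below the cutoff of 1. POLH, the polymerase of the group, stood at 11.4, 10.3, 10.8 and 11.1 CPM in DMSO and at 16.8, 20.2, 20.8 and 25.6 CPM in CPT. These were low counts, from 30 to 46 in DMSO and from 57 to 82 in CPT, and the CPT libraries were spread more widely than the DMSO libraries. The log2 fold change was 1.09 (SE 0.18, edgeR adjusted p = 9.41e-06). It was 0.93 with library totals as the only scaling and 0.99 without library 29, both below the fold cutoff.

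The redox genes rose by like amounts. FDXR stood at 29.9, 29.6, 23.4 and 33.9 CPM in DMSO and at 87.1, 72.0, 86.6 and 88.3 CPM in CPT. Library 27 was the low one of the CPT set yet lay far above all DMSO libraries, and the log2 fold change was 1.68 (SE 0.13, edgeR adjusted p = 1.10e-11). SESN1 stood at 16.1, 14.5, 13.2 and 9.85 CPM in DMSO and at 28.8, 32.3, 30.8 and 35.6 CPM in CPT. The groups were clearly apart, with a log2 fold change of 1.44 (SE 0.16, edgeR adjusted p = 1.12e-08). TIGAR stood at 60.5, 52.3, 48.9 and 38.7 CPM in DMSO and at 124, 118, 135 and 136 CPM in CPT. The lowest CPT library lay far above the highest DMSO library, and the log2 fold change was 1.54 (SE 0.12, edgeR adjusted p = 9.17e-12).

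Scaling mattered for the size of these values. Mitochondrially encoded transcripts took 30.5% to 32.3% of the counts in CPT and 20.6% to 26.8% in DMSO. The median log2 fold change of all genes was 0.01 after TMM normalization and -0.16 with library totals alone, a shift of 0.17. By TMM 1520 genes passed the threshold higher and 1049 lower, and by library totals 1251 higher and 1535 lower, with 5 of the 7 genes among those called. The U2OS markers also moved, from 2174 to 2710 CPM in DMSO to 3767 to 4440 CPM in CPT, and 2 of these 5 marker genes passed the threshold higher. The part of either in the differences of the 7 genes was not tested.

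**Figure D2:**
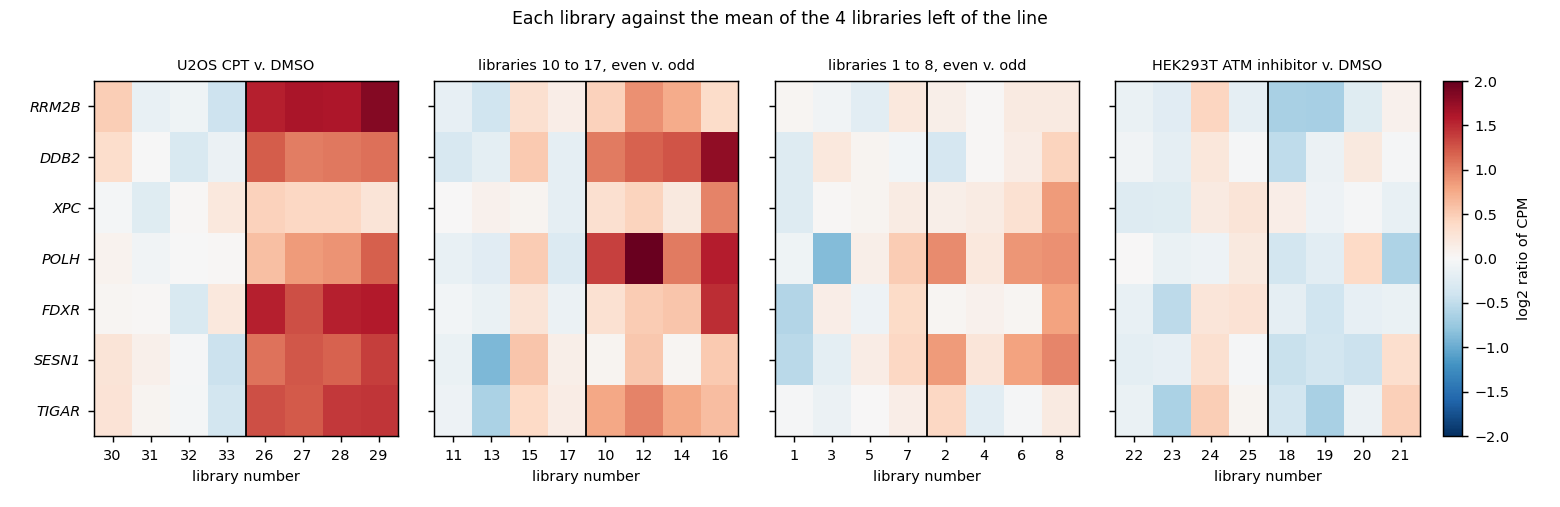
Log2 ratio of CPM of each library to the mean of the 4 control or odd-numbered libraries left of the line (color, from -2 to 2), for the 7 genes in the 4 comparisons. The U2OS CPT panel is red right of the line for all 7 genes, while the right side of the HEK293T panel is mostly pale or blue, and the panels of libraries 10 to 17 and 1 to 8 differ from gene to gene.

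In HEK293T cells, libraries 18 to 21 were compared with DMSO libraries 22 to 25 to ask whether the ATM inhibitor alone altered these transcripts. The 7 genes overlapped between the groups, where 1.12% of all genes were higher and 1.96% lower without overlap, and 0 of 7 passed the threshold in either direction. Across all genes 0% passed it in either direction and 0.00543%, a single gene, was lower with an adjusted p under 0.05 at any fold. At an unadjusted p, 1019 of 18413 genes were under 0.05, and edgeR's likelihood ratio test called 2 genes and DESeq2 called 0. The log2 fold changes of the 7 genes ran from -0.30 for RRM2B to 0.04 for XPC, with edgeR adjusted p from 0.905 to 0.995.

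RRM2B stood at 25.1, 23.4, 37.3 and 24.3 CPM in DMSO libraries 22 to 25 and at 17.4, 17.2, 23.3 and 29.1 CPM in libraries 18 to 21. Libraries 18, 19 and 20 lay below all DMSO libraries, library 20 only just, and library 21 lay within their range. The 95% interval of the log2 fold change was -0.64 to 0.03. DDB2 ran from 25.1 to 33.6 CPM in DMSO and from 19.8 to 32.9 CPM in libraries 18 to 21, and XPC from 87.6 to 125 CPM and from 94.9 to 116 CPM. POLH ran from 10.3 to 13.03 CPM and from 7.19 to 15.01 CPM, with an interval of -0.52 to 0.34. Among the redox genes FDXR ran from 14.3 to 25.5 CPM in DMSO and from 15.7 to 18.8 CPM in libraries 18 to 21. SESN1 ran from 26.9 to 38.6 CPM and from 22.5 to 39.1 CPM, where library 21 alone stood above 23.8 CPM. TIGAR ran from 17.1 to 37.8 CPM and from 16.9 to 37.7 CPM. The intervals of the 7 log2 fold changes reached no lower than -0.64 and no higher than 0.34.

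**Figure D3:**
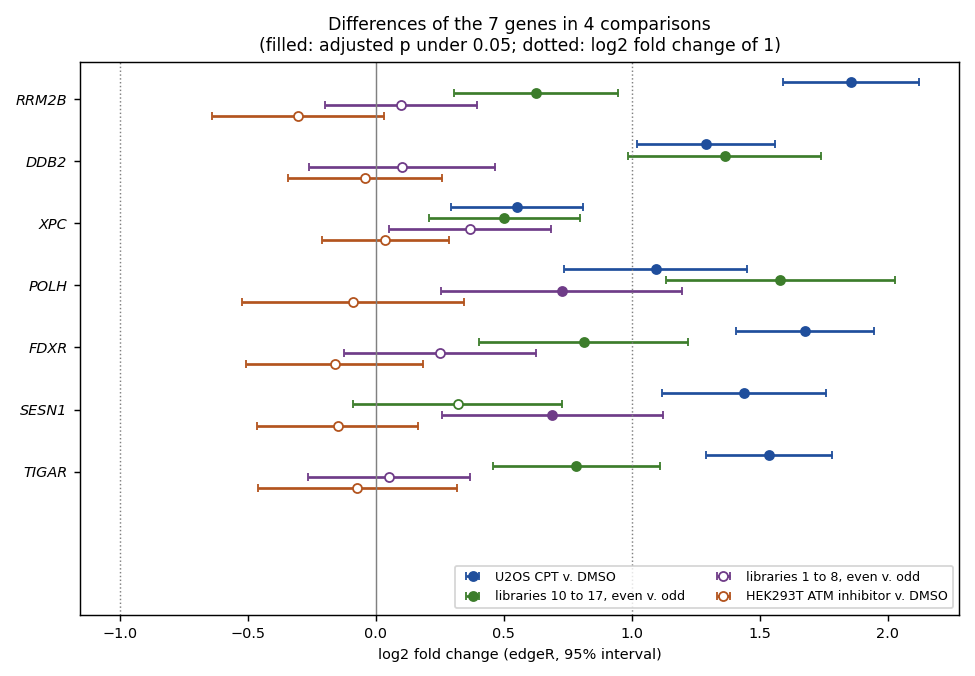
Log2 fold change (horizontal axis) with its 95% interval for the 7 genes in 4 comparisons, from edgeR's quasi-likelihood test; filled points have an adjusted p under 0.05 and dotted lines mark log2 fold changes of -1 and 1. The U2OS CPT point lies above 1 for all genes but XPC, and no HEK293T ATM inhibitor point is filled.

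Libraries 10 to 17 carry HEK293T markers, and their even-numbered members were set against the odd-numbered ones. Here 6 of the 7 genes had an adjusted p under 0.05 and were higher in the even-numbered libraries, where 17.6% of the 19464 genes tested were so. These same 6 did not overlap between the groups, against 16.4% of all genes. Past the fold cutoff as well were DDB2 and POLH, 2 of 7 against 9.52% of all genes, and 4.45% were past it lower. SESN1 was the gene whose groups overlapped. U2OS markers, at 77.1 to 85.3 CPM in the odd-numbered and 152 to 249 CPM in the even-numbered libraries, moved with this split, and their part in it was not tested.

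DDB2 stood at 16.3, 17.9, 29.998 and 18.2 CPM in libraries 11, 13, 15 and 17 and at 42.9, 47.2, 50.2 and 71.5 CPM in libraries 10, 12, 14 and 16. Library 15 was high in its set and library 16 high in its own, and the log2 fold change was 1.36 (SE 0.18, edgeR adjusted p = 4.13e-06). POLH stood at 6.57, 6.26, 10.7 and 5.98 CPM in the odd-numbered and at 19.9, 30.6, 15.7 and 22.8 CPM in the even-numbered libraries. The groups were far apart for this polymerase, with a log2 fold change of 1.58 (SE 0.22, edgeR adjusted p = 5.70e-06). Both calls held without library 15 and without library 16.

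RRM2B stood at 28.5, 24.0, 40.0 and 34.8 CPM in the odd-numbered and at 44.1, 60.5, 53.4 and 41.3 CPM in the even-numbered libraries. Libraries 15 and 16 nearly met, and the log2 fold change was 0.63 (SE 0.15, edgeR adjusted p = 0.00299). XPC stood at 101, 106, 104 and 88.2 CPM and at 124, 136, 115 and 198 CPM, where library 16 carried much of the difference. Its log2 fold change of 0.50 (edgeR adjusted p = 0.00846) was 0.32 (adjusted p = 0.0717) without libraries 15 and 16.

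FDXR stood at 21.6, 20.5, 26.9 and 20.6 CPM in the odd-numbered and at 27.9, 32.1, 32.9 and 63.0 CPM in the even-numbered libraries. Library 16 again lay far above the rest, and the log2 fold change of 0.81 (SE 0.20, edgeR adjusted p = 0.00269) was 0.54 without libraries 15 and 16. TIGAR stood at 33.01, 22.8, 46.9 and 39.7 CPM and at 61.2, 71.0, 60.5 and 54.7 CPM, so that library 15 was high in its set and library 16 low in its own. The log2 fold change was 0.78 (SE 0.16, edgeR adjusted p = 0.000497), and 1.00 without those 2 libraries. SESN1 stood at 34.5, 19.97, 55.8 and 41.0 CPM and at 39.5, 55.2, 39.0 and 54.5 CPM. Its groups overlapped fully, since library 15 was the highest of all 8, and the log2 fold change was 0.32 (95% interval -0.09 to 0.73, edgeR adjusted p = 0.219).

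Libraries 1 to 8 carry U2OS markers. In them 0 of the 7 genes passed the threshold in the even-numbered against the odd-numbered libraries, where 2.8% of the 18591 genes tested were past it higher and 2.44% lower. All 7 overlapped between the groups, against 7.61% of genes that were higher and 6.02% that were lower without overlap. At any fold, POLH and SESN1 had an adjusted p under 0.05, 2 of 7 against 6.43% of all genes higher and 6.56% lower. POLH stood at 8.47, 4.76, 9.86 and 13.1 CPM in libraries 1, 3, 5 and 7 and at 17.8, 10.6, 17.01 and 17.5 CPM in libraries 2, 4, 6 and 8. Library 4 fell within the range of the odd-numbered libraries, and the log2 fold change was 0.73 (SE 0.23, edgeR adjusted p = 0.0290) from counts as low as 11. SESN1 stood at 7.06, 9.09, 11.8 and 14.2 CPM and at 19.5, 12.5, 18.7 and 21.1 CPM. Library 4 was again the one that overlapped, and the log2 fold change was 0.69 (SE 0.22, edgeR adjusted p = 0.0231). With library 1, which is labelled U2OS wild type, left out so that the odd-numbered libraries share a label, adjusted p rose to 0.0576 for POLH and 0.0712 for SESN1.

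For RRM2B, DDB2, XPC, FDXR and TIGAR no edgeR adjusted p was under 0.05. RRM2B ran from 70.1 to 93.8 CPM in the odd-numbered and from 82.3 to 91.99 CPM in the even-numbered libraries. DDB2 ran from 19.8 to 27.7 CPM and from 18.7 to 32.5 CPM, and XPC from 43.0 to 57.8 CPM and from 56.0 to 93.7 CPM. The highest XPC and FDXR values both came from library 8. FDXR ran from 15.5 to 31.1 CPM and from 24.3 to 41.4 CPM, and TIGAR from 46.7 to 55.1 CPM and from 43.3 to 67.3 CPM. The log2 fold changes were 0.10 for RRM2B, 0.10 for DDB2, 0.37 for XPC, 0.25 for FDXR and 0.05 for TIGAR, with edgeR adjusted p from 0.119 to 0.897. The 95% interval of XPC was 0.05 to 0.68, while those of RRM2B, DDB2, FDXR and TIGAR included 0.

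A test of the difference between comparisons was then made, by an interaction contrast over the 16 libraries concerned. Against HEK293T libraries 18 to 25, the U2OS CPT log2 fold change was larger past the threshold for 6 of 7 genes, all but XPC, against 3.87% of the 21441 genes tested, and 3.59% were past it lower. The difference in log2 fold change was 2.17 for RRM2B (95% interval 1.74 to 2.60, edgeR adjusted p = 9.27e-11) and 0.52 for XPC (0.16 to 0.88, adjusted p = 0.0414), the largest and smallest. Cell line, agent and dose all differ between these comparisons and cannot be told apart.

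**Figure D4:**
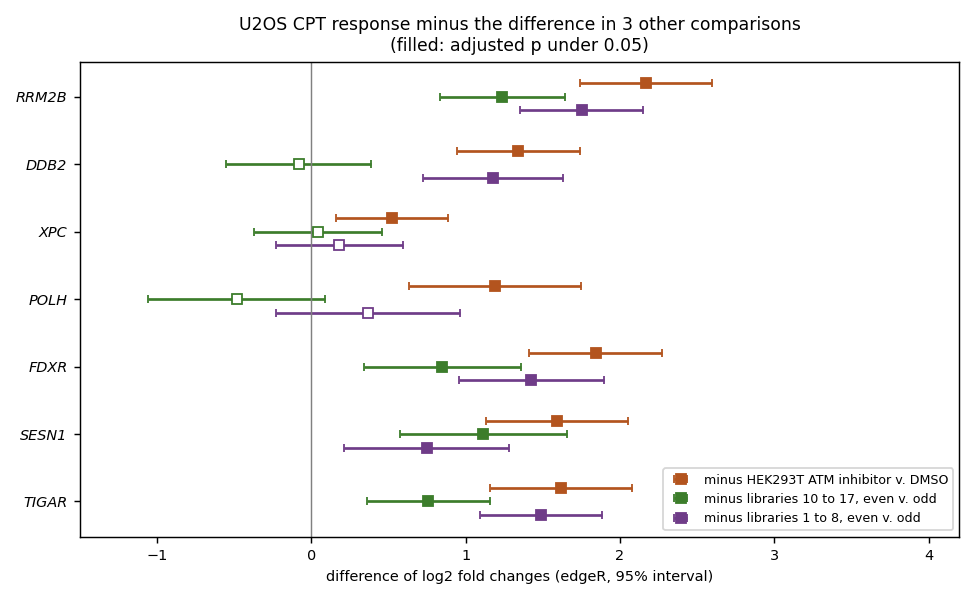
U2OS CPT log2 fold change minus that of 3 other comparisons (horizontal axis, with 95% intervals from edgeR's interaction contrast) for the 7 genes; filled squares have an adjusted p under 0.05. Against libraries 10 to 17, RRM2B, FDXR, SESN1 and TIGAR lie right of 0 and the intervals of DDB2, XPC and POLH include it.

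Against libraries 10 to 17 the 7 genes fell apart. RRM2B and SESN1 were past the threshold, 2 of 7 against 5.15% of 22363 genes larger and 6.71% smaller, with differences of 1.24 (95% interval 0.83 to 1.64, edgeR adjusted p = 6.27e-06) and 1.11 (0.57 to 1.65, adjusted p = 0.00165). FDXR differed by 0.85 (edgeR adjusted p = 0.0119) and TIGAR by 0.76 (edgeR adjusted p = 0.00354), both below the fold cutoff. For DDB2 the difference was -0.08 with an interval of -0.55 to 0.39, for XPC 0.04 with an interval of -0.37 to 0.46, and for POLH -0.49 with an interval of -1.06 to 0.09. No difference was detectable for these genes, whose edgeR adjusted p ran from 0.253 to 0.981. Against libraries 1 to 8, RRM2B (1.75), DDB2 (1.18), FDXR (1.42) and TIGAR (1.49) were past the threshold, 4 of 7 against 5.58% of 20539 genes larger and 5.19% smaller. SESN1 differed by 0.75 (edgeR adjusted p = 0.0431), while XPC at 0.18 (interval -0.23 to 0.59) and POLH at 0.37 (interval -0.23 to 0.96) were not past it.

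For the levels without damage, U2OS DMSO libraries 30 to 33 were compared with HEK293T DMSO libraries 22 to 25, which are also the controls of the first 2 comparisons. RRM2B and TIGAR were past the threshold higher in U2OS, 2 of 7 against 21.8% of the 19739 genes tested, and 0 of 7 were past it lower, against 18.1%. RRM2B was 2.66-fold higher in U2OS (95% interval 2.13 to 3.31, edgeR adjusted p = 1.19e-09) and TIGAR 2.15-fold higher (1.71 to 2.71, adjusted p = 3.86e-07). SESN1 and XPC were lower in U2OS without overlap, 2 of 7 against 32.3% of all genes, and 2 of 7, RRM2B and TIGAR, were higher without overlap, against 23.2%. The lower ones differed by log2 fold changes of -0.997 (edgeR adjusted p = 4.00e-06) and -0.51 (edgeR adjusted p = 0.00121). FDXR was higher by 0.72 with overlapping groups (edgeR adjusted p = 0.000357). At any fold 32% of all genes were higher and 30.1% lower at an adjusted p under 0.05, and 3 and 2 of the 7 were. DDB2 at 0.15 and POLH at 0.18 had intervals that include 0, and both turned negative, to -0.07 and -0.05, with library totals as the only scaling, which moved the median of all genes from 0.01 to -0.21.

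Over the 8 sets, RRM2B was highest in U2OS CPT at a mean of 202 ± 17.3 CPM (SD, n = 4) and lowest in HEK293T libraries 18 to 21 at 21.7 ± 5.68 CPM. The 4 sets with U2OS markers came first for RRM2B, with the even-numbered libraries of 1 to 8 at 88.6 ± 4.53 CPM and the odd-numbered at 81.1 ± 10.0 CPM, neighbours that did not differ beyond their spread, and U2OS DMSO at 63.6 ± 17.9 CPM. TIGAR had a like order at the ends, from 128 ± 8.96 CPM in U2OS CPT to 24.9 ± 9.06 CPM in libraries 18 to 21. The even-numbered libraries of 10 to 17 took the second place for TIGAR at 61.8 ± 6.76 CPM, ahead of the even-numbered libraries of 1 to 8 at 54.4 ± 10.3 CPM by less than their spread. FDXR was highest in U2OS CPT at 83.5 ± 7.71 CPM, and the next set, the even-numbered libraries of 10 to 17 at 39.0 ± 16.2 CPM, lay well below it.

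XPC and SESN1 had another order. XPC was highest in the even-numbered libraries of 10 to 17 at 143 ± 37.5 CPM. It was lowest in the odd-numbered libraries of 1 to 8 at 51.7 ± 6.23 CPM. By library totals, U2OS CPT at 82.1 ± 5.04 CPM stayed below HEK293T DMSO at 105 ± 19.7 CPM. SESN1 was likewise highest in the even-numbered libraries of 10 to 17 at 47.1 ± 9.03 CPM. By library totals, its U2OS CPT level of 31.9 ± 2.83 CPM was about that of HEK293T DMSO at 30.8 ± 5.40 CPM. By TMM, XPC had log2 fold changes of -0.51 in U2OS against HEK293T DMSO and 0.55 in U2OS CPT against DMSO. For SESN1 they were -0.997 and 1.44. Mitochondrially encoded transcripts took 30.5% to 32.3% of counts in U2OS CPT and 14.4% to 17.4% in libraries 22 to 25. Set levels from different cell lines thus depend on the scaling. DDB2 at 59.0 ± 3.46 CPM in U2OS CPT and 52.95 ± 12.7 CPM in the even-numbered libraries of 10 to 17 did not differ beyond the spread, nor did POLH at 20.8 ± 3.63 and 22.2 ± 6.27 CPM in the same sets.

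The regulators of the 7 genes were read from the same fits. ATM, the kinase targeted by inhibitor or knockout, had log2 fold changes of 0.20 in U2OS CPT (edgeR adjusted p = 0.242), -0.06 in libraries 18 to 25 (adjusted p = 0.977), 0.22 in libraries 10 to 17 (adjusted p = 0.305) and -0.31 in libraries 1 to 8 (adjusted p = 0.255). An inhibitor need not alter the transcript, and 3′ tags may lie outside the deleted part of a knockout allele, so these values check no label. CDKN1A, the arrest gene that is the best known p53 target, had log2 fold changes of 2.24 in U2OS CPT, -0.07 in libraries 18 to 25, 2.17 in libraries 10 to 17 and 0.15 in libraries 1 to 8. MDM2, the feedback inhibitor of p53, stood at 1.9999, -0.11, 1.14 and 0.34 in that order. In U2OS CPT and in libraries 10 to 17 both passed the threshold, and in the other comparisons neither did.

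Of 28 other p53 targets tested in U2OS CPT, 17 passed the threshold higher and 0 lower, against 7.97% and 5.5% of all genes tested. Their median log2 fold change was 1.21 against 0.01 for all genes. The largest of them were GDF15, a secreted stress factor, at 3.63, FAS, a death receptor, at 2.76, GADD45A, a damage response gene, at 2.33, and CDKN1A. In libraries 10 to 17, 11 of 30 passed higher and 0 lower, against 9.52% and 4.45% of all genes, with a median of 0.81. The number higher was 9 without library 16 and 13 without library 15. In libraries 18 to 25, 0 of 29 passed in either direction, where 0% of all genes did. In libraries 1 to 8, of 29 tested, GDF15 passed higher at 1.25 and CMBL lower at -1.03, against 2.8% and 2.44% of all genes. At any fold, 10 of the 29 were higher and 2 lower with an edgeR adjusted p under 0.05, against 6.43% and 6.56% of all genes. Without overlap 8 were higher and 2 lower, against 7.61% and 6.02%, and the list median was 0.34.

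The partners of each gene in its pathway were read from lists of related genes. Of all genes tested, 7.97% passed the threshold higher and 5.5% lower in U2OS CPT. In libraries 10 to 17 the shares were 9.52% and 4.45%, and in libraries 1 to 8 they were 2.8% and 2.44%. In short lists, counts of 0 or 1 lie near these shares, and no result about a pathway is drawn from them. In nucleotide excision repair, 0 of 21 other genes passed higher in U2OS CPT and 1 lower, with a list median of 0.14. In libraries 10 to 17, 1 of 21 passed in each direction, the higher one being ERCC6, a sensor of stalled transcription, at 1.13. Of 10 other translesion genes, 0 passed in either direction in U2OS CPT, and UBE2A, a ubiquitin-conjugating enzyme, passed higher in libraries 10 to 17 at 1.13. Of 10 genes of deoxynucleotide supply, 2 passed lower in U2OS CPT and 0 higher, and DUT, which removes dUTP, was among the lower ones at -1.03. At any fold, 7 of the 10 were lower and 0 higher with an edgeR adjusted p under 0.05, against 15.3% and 16.6% of all genes. Without overlap 6 were lower and 0 higher, against 20.1% and 11.2%, and the list median was -0.52. RRM2, the S-phase counterpart of RRM2B, stood at 142, 148, 128 and 137 CPM in DMSO libraries 30 to 33 and at 85.6, 89.0, 84.1 and 82.7 CPM in CPT libraries 26 to 29. It was lower in CPT without overlap (log2 fold change -0.53, edgeR adjusted p = 0.000331), while RRM2B was higher in the same libraries. In libraries 10 to 17, RRM2 was higher in the even-numbered ones at 0.63 (edgeR adjusted p = 0.000237), below the fold cutoff.

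The sestrins differed from each other. In U2OS CPT, SESN2 was higher at 1.48 (edgeR adjusted p = 3.06e-11) and SESN3 lower at -1.19 (edgeR adjusted p = 4.07e-10), from 155 to 190 CPM in DMSO down to 63.7 to 72.7 CPM in CPT. In libraries 10 to 17 the signs were the other way, at -0.45 for SESN2 (edgeR adjusted p = 0.0432) and 0.81 for SESN3 (edgeR adjusted p = 3.20e-05), neither past the fold cutoff. In libraries 1 to 8 SESN2 was at 0.77 (edgeR adjusted p = 0.00142). Of the 13 genes of the sestrin and TORC1 list, SESN2 passed higher in U2OS CPT and SESN3 and DDIT4, another TORC1 inhibitor, at -1.37 passed lower. DDIT4 was also lower in libraries 10 to 17 at -2.74.

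Of 9 genes of the ferredoxin and iron-sulfur system, 0 passed in U2OS CPT in either direction. LYRM4, a protein of iron-sulfur assembly, passed lower in libraries 10 to 17 at -1.17. Of 7 relatives of TIGAR in glycolysis and the pentose phosphate pathway, PFKFB4, a kinase that acts opposite to TIGAR, passed higher in U2OS CPT at 1.54. PFKFB4 had few counts, from 5 to 8 in DMSO and from 8 to 18 in CPT. HK2, a hexokinase, passed lower in libraries 10 to 17 at -1.19. Of 11 genes listed for the peroxiredoxin axis, 0 passed in either direction in these 2 comparisons. Among the damage kinases, CHEK1, a checkpoint kinase, passed lower in libraries 1 to 8 at -1.496. In libraries 18 to 25, 0 genes of these lists passed the threshold.

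Likeness of level was described by Pearson's r of log2 CPM over all 32 libraries among 9683 genes with a mean log2 CPM over 3. These libraries differ in cell line, depth and treatment. The r takes no account of this and is given with no test. For RRM2B the closest were PPM1D (0.96), ITIH5 (0.95) and SEC31A (0.95), and for TIGAR CDKN1A (0.94), DUSP14 (0.93) and PPM1D (0.93). For FDXR they were ZMAT3 (0.94), CDKN1A (0.92) and ATP6V0E1 (0.90), for DDB2 TP53INP1 (0.88), TNFRSF10B (0.87) and CYLD (0.87), and for POLH SECISBP2L (0.83), GDF15 (0.83) and TNFRSF10B (0.82). XPC was closest to TAF3 (0.91), AEN (0.90) and BAZ1A (0.89), and SESN1 to GYG1 (0.89), AEN (0.87) and RIOK3 (0.86). Within the 7 genes, r was 0.95 between RRM2B and TIGAR and 0.77 between XPC and SESN1, and -0.28 between RRM2B and XPC.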

How the data were processed

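Per the labels and the study's methods, RNA was made into QuantSeq 3′ mRNA libraries with UMIs, in which each fragment comes from a transcript's 3′ end. The authors deposited raw counts per gene from the Lexogen QuantSeq FWD UMI pipeline on the BlueBee platform. Aligner, genome build, annotation and strand setting are not given in the sources used here. All 32 count columns were used (0 left out), and 5 summary rows (reads on no gene were 9.39% to 39.9% of a library) and 92 spike-in rows were left out. Symbols of GENCODE 29 matched 56104 of 60107 identifiers.

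Counts were tested with edgeR 4.0.16 in R 4.3.3 (TMM normalization, quasi-likelihood test, Benjamini-Hochberg adjustment over all genes tested), on genes whose count exceeded 1 in 2 or more libraries of the fit. The cutoffs of the study were used (absolute log2 fold change over 1, adjusted p under 0.05), with DESeq2 1.42.0 and edgeR's likelihood ratio test, which the study used, as alternatives. Fold changes are scaled by TMM and CPM values by library totals. Intervals of 95% are confidence intervals of the log2 fold change between groups, computed from the variation between libraries. They do not give the range of single libraries. The labels do not say that libraries are separate cultures, while the study calls its repeats independent. No pair of libraries in a set differed by as little as sampling noise. The floor of 3 counts is 2.43 to 0.472 CPM. The procedure was tested on simulated data.

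The 7 genes and the pathway lists were chosen with earlier results of these data known, and the libraries of each set were given by number. Named genes are the 7, ATM, MDM2, CDKN1A, RRM2, SESN2, SESN3, of each list at most the 4 largest changes past the threshold, and the 3 most alike genes of each of the 7. Some genes that this rule names are not reported here. SOD2, 1 of 12 genes listed for the peroxiredoxin axis, matched no identifier. No genome or protein sequences were used, and no promoter is shown for RRM2B.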

Additional observations from a re-analysis of the deposited data

Results flagged for a closer look

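Each of the 7 genes was looked at in each of the 8 sets of 4 libraries, 56 groups of values. In 9 of them 1 library lay apart from the rest by Dixon's test, which chance alone flags in about 1 of 20 independent groups. The same libraries recur across genes, so these groups are not independent and the 9 cannot be weighed against that share. In libraries 10 to 17, library 15 was high for DDB2 (29.998 CPM, others 16.3 to 18.2), for POLH (10.7 CPM, others 5.98 to 6.57) and for FDXR (26.9 CPM, others 20.5 to 21.6), and library 16 was high for FDXR (63.0 CPM, others 27.9 to 32.9). In libraries 1 to 8, library 4 was low for POLH (10.6 CPM, others 17.01 to 17.8) and library 8 was high for FDXR (41.4 CPM, others 24.3 to 25.02). In HEK293T, library 24 was high for RRM2B (37.3 CPM, others 23.4 to 25.1) and library 21 high for SESN1 (39.1 CPM, others 22.5 to 23.8). In U2OS CPT, library 27 was low for FDXR (72.0 CPM, others 86.6 to 88.3).

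The U2OS CPT log2 fold change exceeded that of another comparison past the threshold, by edgeR's interaction contrast, in 12 cases. Against HEK293T libraries 18 to 25 the differences were 2.17 for RRM2B, 1.34 for DDB2, 1.19 for POLH, 1.84 for FDXR, 1.59 for SESN1 and 1.62 for TIGAR. Against libraries 10 to 17 they were 1.24 for RRM2B and 1.11 for SESN1. Against libraries 1 to 8 they were 1.75 for RRM2B, 1.18 for DDB2, 1.42 for FDXR and 1.49 for TIGAR.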

How the results depend on the processing

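The count of the 7 genes past the threshold was 6 in U2OS CPT, 0 in libraries 18 to 25, 2 in libraries 10 to 17, 0 in libraries 1 to 8 and 2 in U2OS against HEK293T DMSO. Leaving out 1 library at a time, it was 5 to 6, 0, 2, 0 and 2 to 3, while all genes past the threshold numbered 2411 to 2550, 0 to 14, 2360 to 2599, 771 to 1053 and 7518 to 7735, and the 14 came without library 21. With no cutoff on fold change the 7 genes gave 6 in libraries 10 to 17, 2 in libraries 1 to 8, 5 in U2OS against HEK293T DMSO and 4 for the difference of U2OS CPT and libraries 10 to 17, and all genes gave 6091, 1, 6785, 2415 and 12256 in the order above. With filterByExpr all genes gave 1652 in U2OS CPT, 1461 in libraries 10 to 17, 644 in libraries 1 to 8 and 5090 in U2OS against HEK293T DMSO, with fewer genes tested. For libraries 18 to 25 all genes gave 2 by the likelihood ratio test, 2 with no filter, 1 with all 32 libraries in one fit and 1 with library totals as the only scaling. With groups by label, U2OS ATM knockout against wild type gave 631 genes in place of 2718. By label, the wild-type group holds library 1, with U2OS markers at 3332 CPM. It also holds libraries 11, 13 and 15, with these markers at 77.1 to 85.3 CPM. Of the 8 libraries labelled HEK293T DMSO, 3, 5 and 7 stood at 3031 to 4835 CPM for these markers. Libraries 17 and 22 to 25 stood at 78.0 to 125 CPM. Groups by label thus mix profiles of the 2 cell lines, and the part of this in the changed values was not tested. Log2 fold changes that turned sign were all of values not past the threshold: SESN1 to 0.091 with all 8 HEK293T DMSO libraries, XPC to -0.054 and SESN1 to -0.19 in libraries 2, 4, 6 and 8 against 8 DMSO libraries by label, and with library totals XPC in libraries 18 to 25 to -0.027 and, in U2OS against HEK293T DMSO, DDB2 to -0.069 and POLH to -0.046. With 1 library left out, values on both sides of 0 were seen in libraries 18 to 25 for DDB2 (-0.17 to 0.070), XPC (-0.049 to 0.14), POLH (-0.34 to 0.058) and TIGAR (-0.29 to 0.14), and in libraries 1 to 8 for DDB2 (-0.0026 to 0.18) and TIGAR (-0.044 to 0.090). SESN1 in U2OS against HEK293T DMSO crossed the fold cutoff, with a range of -1.06 to -0.88 over the libraries left out, and TIGAR fell below it at 0.94 without library 23 and 0.89 with library totals. The cause was not tested. Library totals, and in libraries 10 to 17 the leaving out of libraries 15 and 16 and the groups of 1 label, were chosen after seeing the data. No paired analysis was possible because the labels give the groups no shared replicate numbers.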

Other observations

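GTPBP2, which lies on the opposite strand at or near the 3′ end of POLH, had a mean of 14.6 CPM in U2OS DMSO and 14.8 CPM in U2OS CPT. In libraries 10 to 17 its mean was 12.8 CPM in the odd-numbered and 11.3 CPM in the even-numbered ones. POLH was higher in the second group of both comparisons. Genes on the opposite strand at or near the 3′ end of XPC had 0 to 3 counts in any library. A gene on the same strand at or near the 3′ end of TIGAR was not analysed here.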
